A study of Mus musculus with 12 samples.

Results

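Hepatokines are proteins that the liver secretes into the blood and that act on metabolism in the liver itself or in other tissues. The 9 genes described here encode such factors and were taken from the table of FPKM values, in which each Ensembl identifier was matched to the listed mouse symbol: Fgf21, Gdf15, Angptl4, Angptl8, Igfbp1, Igfbp2, Ahsg, Fetub and Enho. They are 9 of 35275 genes in the table, and all 9 were among the 12466 genes tested, those with a mean FPKM of at least 0.5. RNA-seq was done on whole livers of wild-type (WT) mice and of Pctp-/- mice, which lack phosphatidylcholine transfer protein (PC-TP) in the whole body. Each genotype was fed either chow or an MCD diet, which lacks methionine and choline and is used to induce steatohepatitis. The 4 groups were WT on chow, Pctp-/- on chow, WT on MCD and Pctp-/- on MCD, with 3 mice and 3 libraries each. All mice of the study were male, and age, strain, time on the diet and feeding state at collection of the sequenced mice were not given in the sources used here.

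Pctp itself averaged 2.04 ± 0.746 FPKM in WT and 0.420 ± 0.127 in Pctp-/- livers on chow, and 5.54 ± 2.18 against 0.259 ± 0.0909 on MCD (SD, n = 3), with no overlap of genotypes on either diet. The libraries held 30486576 to 55179468 uniquely mapped reads. All 6 chow libraries differed from all 6 MCD libraries in read quality. Between 86.29% and 87.1% of bases reached Q30 on chow against 93.47% to 94.58% on MCD, and 77.59% to 79.41% of reads mapped uniquely against 85.66% to 87.55%. Diet and library quality therefore cannot be told apart in any comparison of MCD with chow, whereas the genotype comparisons lie within a diet.

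Fibroblast growth factor 21 (FGF21) is a stress and fasting hormone that signals through FGF receptors with the co-receptor β-Klotho, and its gene is a known target of PPARα and of the stress-response factor ATF4. GDF15 is a stress-induced cytokine that acts through a receptor in the hindbrain to lower food intake. ANGPTL4 and ANGPTL8 are angiopoietin-like proteins that restrain lipoprotein lipase, and ANGPTL8 is induced by feeding and insulin. IGFBP1 and IGFBP2 bind insulin-like growth factors in plasma, and Igfbp1 is repressed by insulin. Ahsg encodes fetuin-A, an abundant plasma glycoprotein that limits calcification, Fetub encodes the related fetuin-B, a protease inhibitor, and Enho encodes adropin, a peptide linked to energy balance.

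The sequences just upstream of 3 of these genes are shown because these were the genes with an unadjusted p under 0.05 in a comparison of genotypes. RefSeq promoter windows (GRCm38.p6, the build named mm10 in the labels, 250 bases before to 50 after the start) were at hand for 7 of the 9 genes, not for Angptl4 and Enho. Capitals mark TGATGNAA, the core of the C/EBP-ATF response element, in Fgf21 and Angptl8, and CAAAACA, the core of the insulin response element, in Igfbp1. Both strands were searched, and each sequence is read 5′ to 3′ on the strand of its gene. The sequences of Fgf21 and Angptl8 end at the base before the RefSeq start, and that of Igfbp1 ends 5 bases earlier, before the start of the gene in GENCODE M21. Distances are counted from the RefSeq start, which for Igfbp1 is base 7197787.
Fgf21, chr7:45615491-45615740, minus strand: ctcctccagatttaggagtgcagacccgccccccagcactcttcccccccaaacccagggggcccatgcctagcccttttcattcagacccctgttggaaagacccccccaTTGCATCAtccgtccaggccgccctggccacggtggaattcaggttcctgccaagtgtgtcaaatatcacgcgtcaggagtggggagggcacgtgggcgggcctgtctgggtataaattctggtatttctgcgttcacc
Angptl8, chr9:21835260-21835509, plus strand: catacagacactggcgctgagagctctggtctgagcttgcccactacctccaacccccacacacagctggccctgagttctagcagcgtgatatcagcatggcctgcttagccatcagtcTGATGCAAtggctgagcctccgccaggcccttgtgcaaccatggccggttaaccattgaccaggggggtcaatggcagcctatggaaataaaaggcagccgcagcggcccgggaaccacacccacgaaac
Igfbp1, chr11:7197537-7197781, plus strand: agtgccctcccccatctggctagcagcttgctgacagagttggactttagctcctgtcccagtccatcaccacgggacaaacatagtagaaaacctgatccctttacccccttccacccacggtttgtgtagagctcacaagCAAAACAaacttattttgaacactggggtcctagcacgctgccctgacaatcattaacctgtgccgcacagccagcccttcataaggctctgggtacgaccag

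TGATGNAA was found in 3.97% of all 32851 promoter windows. In Fgf21 it lay 139 to 132 bases before the start, on the strand opposite to the gene, and in Angptl8 130 to 123 bases before it, on the strand of the gene. CAAAACA was found in 6.28% of all windows and lay 108 to 102 bases before the start of Igfbp1. The E-box CACGTG, which reads the same on both strands and was found in 7.15% of windows, lay 50 to 45 bases before the start of Fgf21 and also occurred in windows of Gdf15 and Igfbp2. The nuclear receptor half-site AGGTCA, in 16.3% of windows, occurred among these genes in Gdf15 alone. These are matches of letters within the windows and do not show that a factor binds there.

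On the MCD diet the WT liver had far more Fgf21 mRNA, more Angptl8, Igfbp1 and Ahsg mRNA, and less Fetub and Enho mRNA than on chow. In the Pctp-/- liver the same directions were called for Fgf21, Angptl8, Ahsg, Fetub and Enho, but not for Igfbp1. In WT, 6 of 9 genes passed an adjusted p of 0.05 (limma), 4 higher and 2 lower, where 57% of all tested genes were called. In Pctp-/-, 5 of 9 passed, 3 higher and 2 lower, where 50.3% of all tested genes were called. The 5 genes called in Pctp-/- were also called in WT, as were 40.9% of all tested genes in both. Values of the diets did not overlap for the 6 and the 5 called genes, where 63.7% of all tested genes in WT and 59.7% in Pctp-/- did not overlap. Higher calls made up 34.5% and lower calls 22.5% of all tested genes in WT, and 26% and 24.4% in Pctp-/-. Between genotypes, 0 of 9 genes passed by limma on chow, where 0.136% of all tested genes were called, and 0 of 9 on MCD, where 0.818% were called. At an unadjusted p under 0.05 there were 2 genes on chow, Angptl8 and Igfbp1, where 6.98% of all tested genes reached it, and 1 on MCD, Fgf21, where 16.3% did. The MCD responses of the 2 genotypes did not differ at an adjusted p under 0.05 for any of the 9, where 0.0963% of tested genes were called, and 3 genes (Fgf21, Angptl8 and Igfbp1) had an unadjusted p under 0.05, where 15.1% of tested genes had one.

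**Figure D1:**
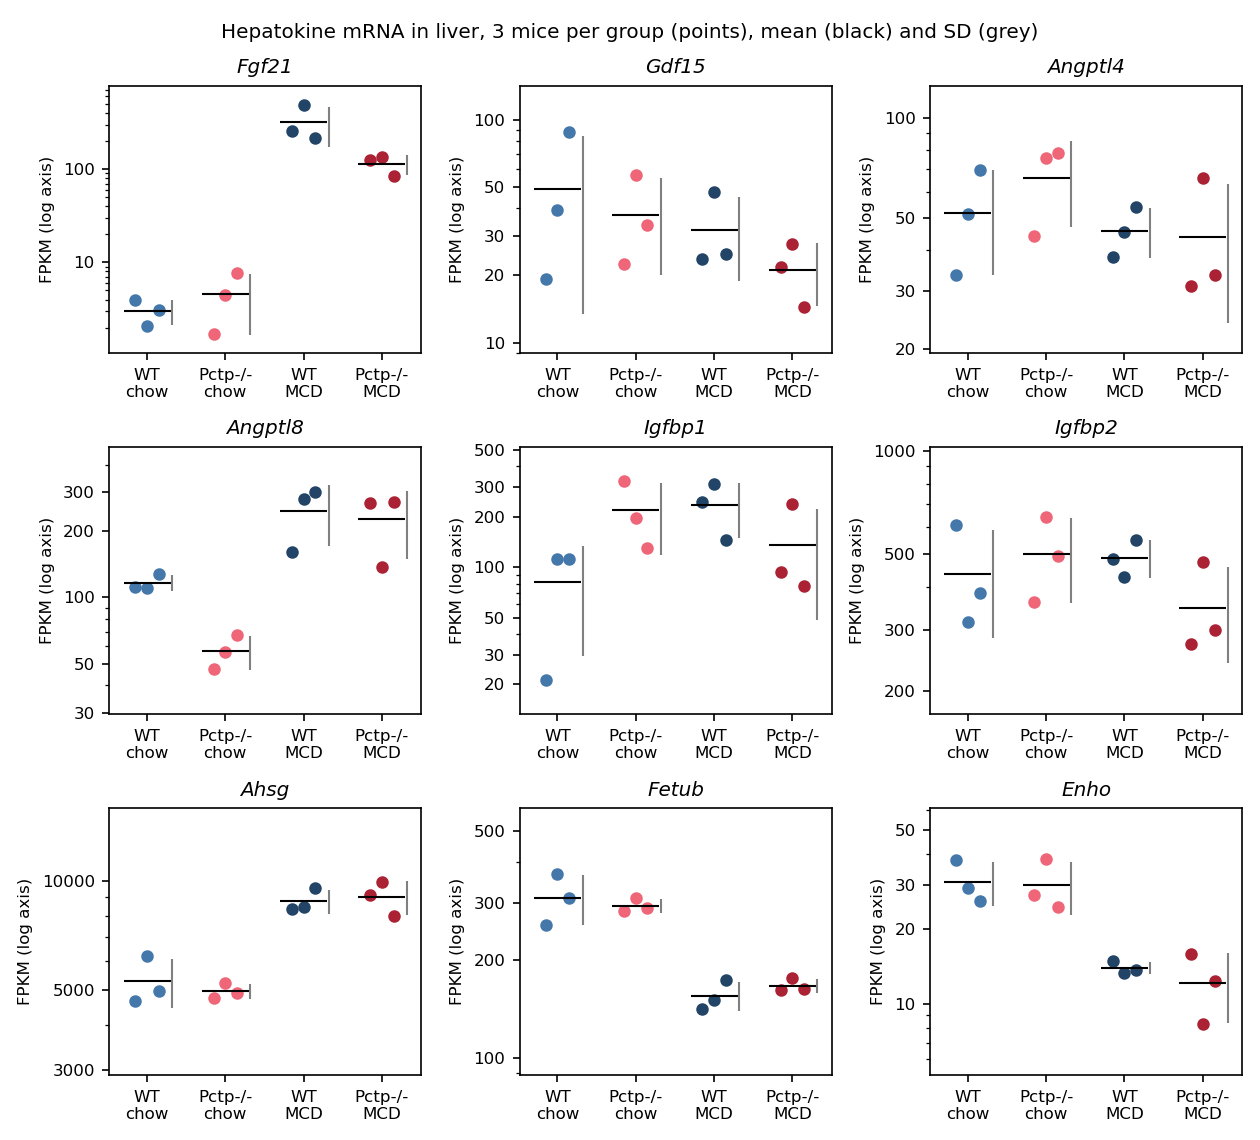
FPKM of the 9 hepatokine genes on log axes, with 1 point per mouse, a black line at the mean of 3 mice and a grey line for the SD. Fgf21 lies between 1.71 and 7.66 FPKM in the 6 chow livers and between 83.3 and 485.5 FPKM in the 6 MCD livers, and the points of Igfbp1, Gdf15, Angptl4 and Igfbp2 spread widely within groups.

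Fgf21 (ENSMUSG00000030827, chr7:45613886-45615490, minus strand, GRCm38) was scarce on chow and among the most abundant transcripts on MCD. The 3 WT livers on chow held 3.93, 2.09 and 3.12 FPKM, and those on MCD 252.8, 485.5 and 215.4 FPKM. In Pctp-/- livers the values were 1.71, 4.51 and 7.66 FPKM on chow and 124.5, 134.2 and 83.3 FPKM on MCD. Every MCD liver was above every chow liver, and every WT liver on MCD was above every Pctp-/- liver on MCD, whereas the genotypes overlapped on chow. By mean rank among tested genes, Fgf21 moved from percentile 34.5 in WT on chow to percentile 98.0 on MCD, and in Pctp-/- from 42.0 to 95.2.

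In WT the ratio of mean FPKM between diets was 104, and the log2 fold change of FPKM + 1, which is smaller than the ratio for low values, was 6.23 (SE 0.39, limma adjusted p = 2.2e-07). It was the 4th largest rise of all tested genes. In Pctp-/- the ratio was 24.6 and the log2 fold change 4.48 (SE 0.39, limma adjusted p = 3.2e-06), the 17th largest rise. On MCD, Pctp-/- livers averaged 114.0 ± 27.1 FPKM and WT livers 317.9 ± 146 FPKM (SD, n = 3). This difference, -1.41 on the log2 scale with a 95% interval of -2.26 to -0.56, did not pass after adjustment over all genes (limma adjusted p = 0.112). Groups that did not overlap, with Pctp-/- lower, were found for 21.1% of all tested genes on MCD. The difference of the diet responses was -1.76 (SE 0.55, limma adjusted p = 0.171). With any 1 library left out, the difference between genotypes on MCD ranged from -1.64 to -1.06 and its adjusted p from 0.0568 to 0.290. On chow, where Pctp-/- averaged 4.63 ± 2.98 and WT 3.05 ± 0.924 FPKM, the interval of the log2 fold change was -0.50 to 1.20.

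Among the FGF receptor genes, Fgfr4, the main FGF receptor of hepatocytes, fell on MCD in both genotypes. It changed by -1.43 in WT (limma adjusted p = 2.8e-06) and by -1.15 in Pctp-/- (limma adjusted p = 1.8e-05) on the log2 scale. Klb, which encodes β-Klotho, measured 7.07 to 12.5 FPKM in the chow-fed and 7.54 to 14.6 FPKM in the MCD-fed livers, and neither it nor Fgfr1, Fgfr2 and Fgfr3 passed in either genotype. Fgfr2 and Fgfr3 were also called lower in WT under quantile normalization (-0.36 and -0.27) and under median-of-ratios scaling (-0.39 and -0.30). None of the 5 was called between genotypes.

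Gdf15 (ENSMUSG00000038508, chr8:70629393-70632456, minus strand) varied more among mice of a group than between groups. WT livers held 19.2, 39.3 and 88.3 FPKM on chow and 23.8, 47.1 and 25.0 FPKM on MCD, and Pctp-/- livers 22.5, 56.4 and 33.5 FPKM on chow and 21.8, 27.6 and 14.4 FPKM on MCD. The lowest and the highest of the 3 WT chow livers lay on either side of every other liver except the lowest Pctp-/- liver on MCD, and all 4 groups overlapped their neighbours in order. The log2 change on MCD was -0.41 in WT (95% interval -1.45 to 0.63) and -0.74 in Pctp-/- (-1.78 to 0.31), so a rise or a fall of moderate size is within the interval in either case. No comparison passed by limma, with adjusted p from 0.219 to 0.985.

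Among the angiopoietin-like genes, Angptl8 rose on MCD in both genotypes and Angptl4 did not pass in either. Angptl8 (ENSMUSG00000047822, chr9:21835510-21837347, plus strand) measured 111.4, 110.2 and 127.4 FPKM in WT on chow and 160.1, 280.1 and 300.1 FPKM on MCD. In Pctp-/- livers it measured 47.5, 56.5 and 67.4 FPKM on chow and 269.1, 137.6 and 270.8 FPKM on MCD. The Pctp-/- chow livers were all below the WT chow livers, which were all below the MCD livers of either genotype, and the genotypes overlapped on MCD.

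The rise of Angptl8 was 2.12-fold in WT (log2 fold change 1.03, SE 0.27, limma adjusted p = 0.00641) and 3.95-fold in Pctp-/- (log2 fold change 1.91, SE 0.27, limma adjusted p = 1.2e-04). On chow the Pctp-/- mean was 0.491 of the WT mean, with 57.1 ± 9.98 against 116.3 ± 9.62 FPKM (SD, n = 3). That log2 difference of -1.02 (95% interval -1.62 to -0.43) was the 60th largest in size of all tested genes but did not pass (limma adjusted p = 0.274). Non-overlap with Pctp-/- lower was seen for 5.38% of tested genes on chow. On MCD the interval was -0.73 to 0.45, and the difference of the diet responses was 0.88 (SE 0.38, limma adjusted p = 0.302). Angptl8 lies within Dock6 on the opposite strand without sharing an exon with it. Dock6 ranged from 1.71 to 7.04 FPKM over the 12 libraries, and whether the counting used strand was not given in the sources used here.

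Angptl4 (ENSMUSG00000002289, chr17:33773750-33781830, minus strand) measured 33.7, 51.2 and 69.9 FPKM in WT on chow and 38.2, 45.2 and 53.9 FPKM on MCD. Pctp-/- livers held 43.9, 75.8 and 78.3 FPKM on chow and 31.2, 66.1 and 33.5 FPKM on MCD. One Pctp-/- liver on MCD was about as high as the chow livers while the other two were low, and the groups overlapped in all comparisons. The log2 change on MCD was -0.12 in WT (limma adjusted p = 0.757) and -0.63 in Pctp-/- (limma adjusted p = 0.120). The Pctp-/- value became -0.96 (adjusted p = 0.0218) without that mouse, replicate 2, and -0.89 (adjusted p = 0.0387) without replicate 1 of Pctp-/- on chow, within a range of 0.0218 to 0.341 over the 12 libraries left out in turn.

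The lipoprotein lipase list moved in both directions on MCD. Of 12 tested genes, 4 were higher in WT (Lpl, Apoc2 and Gpihbp1 among them) and 5 lower (Lmf1, Pcsk6, Lipc, Furin and Angptl6). Called higher in WT were 34.5% of all tested genes and lower 22.5%, and in Pctp-/- 26% and 24.4%. The median log2 fold change of the list in WT was 0.20 against 0.11 over all tested genes. In Pctp-/- the same 5 were lower and 3 were higher, Lpl and Apoc2 among them, and no gene of the list was called between genotypes. Lpl, which encodes lipoprotein lipase and is little expressed by normal adult liver, went from 2.19 to 7.17 FPKM on chow to 25.2 to 66.8 FPKM on MCD, a log2 change of 3.52 in WT and 2.84 in Pctp-/-. Apoc2, the activator of the lipase, rose by 1.67 and 0.97. Lmf1, a chaperone needed for lipase maturation, fell by 2.19 and 1.89, and Pcsk6, a protease that can cleave the lipase, fell by 1.78 and 1.87. The call of Gpihbp1, the endothelial anchor of the lipase, was lost under quantile normalization and under median-of-ratios scaling.

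Igfbp1 (ENSMUSG00000020429, chr11:7197782-7202546, plus strand) was the most variable of the 9 genes. WT livers held 21.3, 112.4 and 112.7 FPKM on chow and 243.9, 312.9 and 145.4 FPKM on MCD. Pctp-/- livers held 326.2, 197.6 and 130.8 FPKM on chow and 93.5, 237.0 and 77.5 FPKM on MCD. The WT values rose from chow to MCD without overlap, and on chow the Pctp-/- livers were all above the WT livers, while on MCD the genotypes overlapped.

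In WT the mean of Igfbp1 went from 82.1 ± 52.7 to 234.1 ± 84.1 FPKM (SD, n = 3), a log2 change of 1.76 (SE 0.61, limma adjusted p = 0.0257). This call rested on single livers. Without the low WT chow liver, replicate 1, the change was 0.98 (adjusted p = 0.108), and the call was also lost without replicate 1 (adjusted p = 0.0655) or replicate 2 (adjusted p = 0.0848) of WT on MCD, within a range of 0.0178 to 0.108 over the libraries left out in turn. In Pctp-/- the log2 change was -0.76 (95% interval -2.08 to 0.56). The difference between these responses was -2.52 (95% interval -4.39 to -0.65), the 11th largest in size of all tested genes, and did not pass (limma adjusted p = 0.196). On chow the Pctp-/- mean was 2.66 times the WT mean, and the log2 difference of 1.63 was also the 11th largest in size (limma adjusted p = 0.555). Non-overlap with Pctp-/- higher was seen for 5.17% of tested genes on chow. Without replicate 1 of WT on chow it was 0.85. On MCD the log2 difference was -0.89 (95% interval -2.21 to 0.43).

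Igfbp2 (ENSMUSG00000039323, chr1:72824503-72852474, plus strand) was more abundant per length than Igfbp1 and passed in no comparison. WT livers measured 606.8, 316.7 and 386.0 FPKM on chow and 482.4, 428.1 and 550.0 FPKM on MCD, and Pctp-/- livers 362.7, 640.7 and 494.9 FPKM on chow and 274.0, 473.5 and 300.4 FPKM on MCD. All 4 groups overlapped their neighbours in order, and the Pctp-/- group on MCD had the lowest mean, 349.3 ± 108 FPKM (SD, n = 3). The log2 change on MCD was 0.20 in WT (limma adjusted p = 0.535) and -0.52 in Pctp-/- (limma adjusted p = 0.125). The second value became -0.76 (adjusted p = 0.0393) without replicate 2 of Pctp-/- on MCD and -0.73 (adjusted p = 0.0459) without replicate 1 of Pctp-/- on chow, within a range of 0.0393 to 0.385 over the 12 libraries left out in turn.

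Of 10 tested genes of the IGF axis, 6 were lower on MCD in WT (Igf1, Igfals, Igfbp4, Igfbp5, Insr and Ghr), where 22.5% of all tested genes were called lower, and 5 in Pctp-/- (Igf1, Igfals, Igfbp4, Igfbp7 and Ghr), where 24.4% were. None was called higher by limma in either genotype, and Igf2r, which encodes the mannose 6-phosphate receptor, had log2 changes of 0.50 in WT (adjusted p = 0.0534) and 0.41 in Pctp-/- (adjusted p = 0.119). The median log2 fold change was -0.64 in WT, against 0.11 over all tested genes, and -0.27 in Pctp-/-, against 0.04. Igfals, which encodes the acid-labile subunit of the circulating IGF complex, fell by 1.61 in WT and by 0.91 in Pctp-/-, and Igfbp4 fell by 1.07 and 0.79. Ghr, the growth hormone receptor, was the gene of this list called between genotypes, on MCD, where 0.818% of all tested genes were called. Igf1 was called beside it under quantile normalization (0.66, limma adjusted p = 0.0317). Ghr measured 77.5, 74.0 and 74.0 FPKM in WT and 101.6, 96.1 and 106.1 FPKM in Pctp-/- on MCD, with a log2 difference of 0.42 (limma adjusted p = 0.0334).

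The fetuin genes moved in opposite directions. Ahsg (ENSMUSG00000022868, chr16:22891277-22899449, plus strand) and Fetub (ENSMUSG00000022871, chr16:22918334-22939778, plus strand) are neighbours with a gap of 18884 bp. Ahsg measured 4647, 6203 and 4960 FPKM in WT on chow and 8355, 8448 and 9549 FPKM on MCD, and in Pctp-/- 4749, 5224 and 4901 FPKM on chow and 9140, 9943 and 7992 FPKM on MCD. Fetub measured 257.2, 366.7 and 309.8 FPKM in WT on chow and 142.1, 150.7 and 173.7 FPKM on MCD, and in Pctp-/- 283.0, 311.2 and 288.4 FPKM on chow and 161.7, 176.7 and 163.1 FPKM on MCD. For both genes the diets did not overlap and the genotypes overlapped on each diet.

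Ahsg, the most abundant of the 9 transcripts, rose 1.67-fold in WT (log2 fold change 0.75, SE 0.13, limma adjusted p = 4.5e-04) and 1.82-fold in Pctp-/- (0.86, SE 0.13, limma adjusted p = 2.0e-04). Fetub fell to 0.50 of its chow mean in WT (log2 fold change -0.99, SE 0.12, limma adjusted p = 3.6e-05) and to 0.568 in Pctp-/- (-0.81, SE 0.12, limma adjusted p = 1.9e-04). The interval of the genotype difference was narrow for both. For Ahsg it was -0.36 to 0.21 in chow-fed livers and -0.25 to 0.32 in MCD-fed livers, and for Fetub it was -0.33 to 0.20 and -0.16 to 0.37. Exons of Ahsg overlap those of the antisense gene Gm30505.

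Of 4 genes of the cystatin superfamily related to the fetuins, Kng1 and Cst3 were higher on MCD in WT, by 0.35 and 0.38 on the log2 scale, and Kng1 and Kng2 in Pctp-/-. Under median-of-ratios scaling neither was called in WT. Called higher on MCD were 34.5% of all tested genes in WT and 26% in Pctp-/-. Kng2, a kininogen gene whose reads may be shared with its near copy Kng1, measured 100 to 105 FPKM in WT and 134 to 155 FPKM in Pctp-/- on MCD, a log2 difference of 0.51 (limma adjusted p = 0.0334). It was the gene of this list called between genotypes, on MCD, where 0.818% of all tested genes were called.

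Enho (ENSMUSG00000028445, chr4:41638144-41640324, minus strand) fell on MCD in both genotypes. WT livers held 37.9, 29.3 and 25.9 FPKM on chow and 14.9, 13.3 and 13.7 FPKM on MCD, and Pctp-/- livers 27.4, 38.3 and 24.5 FPKM on chow and 15.9, 8.30 and 12.4 FPKM on MCD. Every MCD liver was below every chow liver, and the genotypes overlapped on each diet. The mean on MCD was 0.451 of that on chow in WT (log2 fold change -1.08, SE 0.21, limma adjusted p = 0.00108) and 0.405 in Pctp-/- (log2 fold change -1.25, SE 0.21, limma adjusted p = 4.7e-04). The interval of the genotype difference was -0.52 to 0.42 in chow-fed and -0.69 to 0.24 in MCD-fed livers. Enho shares exon sequence with Dnaic1 on the opposite strand, which ranged from 0.138 to 1.09 FPKM over the 12 libraries.

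**Figure D2:**
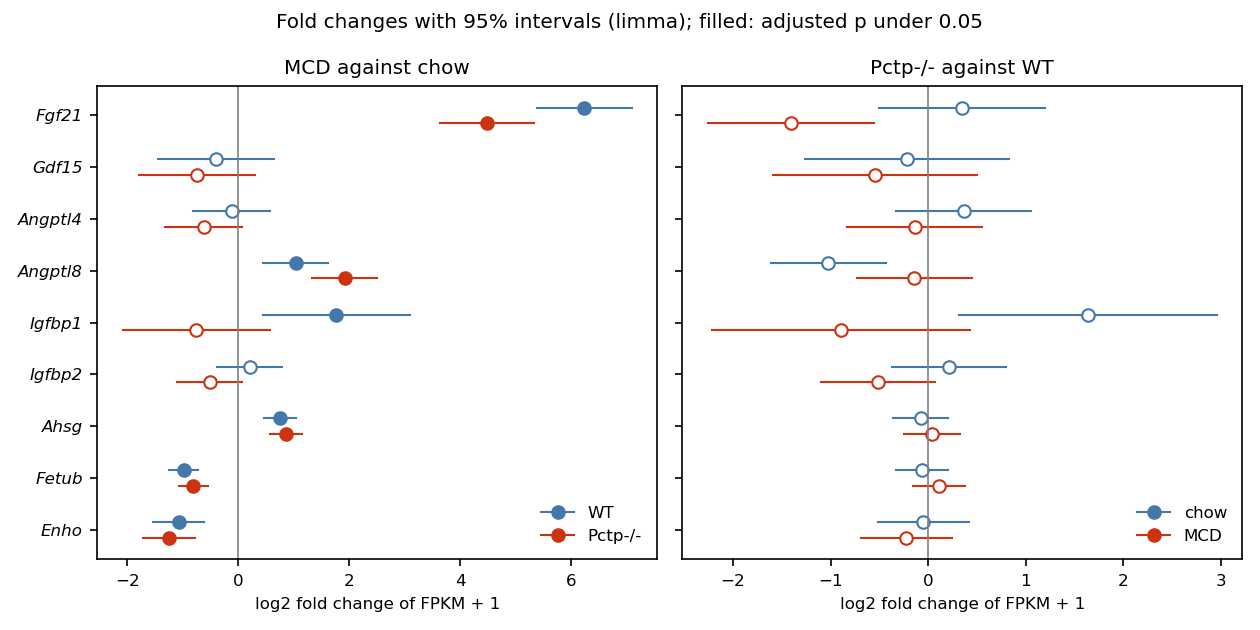
Log2 fold changes of FPKM + 1 with 95% intervals from limma for MCD against chow in each genotype (left) and for Pctp-/- against WT on each diet (right). Filled points have an adjusted p under 0.05, 6 in WT and 5 in Pctp-/- for the diet and 0 for the genotype, and the open points of Angptl8 and Igfbp1 on chow and of Fgf21 on MCD have intervals that leave out 0.

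Cell type markers also moved with diet, and in whole liver a change in a cell type's share cannot be told apart from a change in RNA per cell. The summed FPKM of 7 hepatocyte markers was 43576 to 48027 in WT on chow, 46459 to 48819 in Pctp-/- on chow, 55554 to 63066 in WT on MCD and 70684 to 77015 in Pctp-/- on MCD. The sum of 9 macrophage markers was 56.0 to 93.0, 50.8 to 133, 150 to 244 and 125 to 132 in the same order, and that of 8 stellate cell markers 33.6 to 58.9, 45.2 to 61.2, 138 to 202 and 141 to 167. Of 8 tested macrophage markers, 7 were higher on MCD in WT, 3 in Pctp-/-, and 0 were called between genotypes on either diet. In WT 6 were higher under quantile normalization and 5 under median-of-ratios scaling. Of the 7 hepatocyte markers, 2 were called higher and 3 lower on MCD in WT, with a median log2 fold change of -0.21. In Pctp-/- 2 were higher and 2 lower, with a median of -0.045. Under quantile normalization 0 hepatocyte markers were higher and 4 lower in WT, and 1 higher and 3 lower in Pctp-/-. Median-of-ratios scaling left 1 higher and 3 lower in WT. The sums above were of FPKM as deposited. Of all tested genes, 34.5% were called higher and 22.5% lower in WT, and 26% and 24.4% in Pctp-/-. None of the 7 hepatocyte markers was called between genotypes on either diet, although their sums did not overlap on MCD. Any part of these markers in the Fgf21 values on MCD was not tested. Adipocyte markers summed to at most 0.463 FPKM and pancreatic acinar markers to at most 0.743 FPKM, with 4 of 6 acinar markers at 0 in all libraries.

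The spread among mice of a group separated the 9 genes. The within-group SD of log2(FPKM + 1) was 0.91 for Igfbp1, 0.72 for Gdf15, 0.58 for Fgf21, 0.47 for Angptl4, 0.40 for Angptl8, 0.39 for Igfbp2 and 0.31 for Enho. It was 0.16 for Fetub and 0.15 for Ahsg, close to the median of 0.17 over all tested genes. Igfbp1 was more variable than 99.7% of tested genes, Gdf15 than 99.3% and Fgf21 than 98.6%, and among genes of nearest level these shares were 99.4%, 99.0% and 98.8%. For Angptl8 the SD was 0.19 on chow and 0.53 on MCD, and the fit used a spread pooled over the diets.

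Single mice stood out. Replicate 2 of Pctp-/- on MCD was the highest of its group for Fgf21, Gdf15, Angptl4, Igfbp1, Igfbp2, Ahsg and Fetub and the lowest for Angptl8 and Enho. The 9 genes deviated from their group mean there by 0.459 on average (log2, absolute), against 0.107 over all tested genes. In the same liver the gluconeogenic genes G6pc and Pck1 were at 248 and 1037 FPKM, against 32.7 and 15.8 FPKM for G6pc and 272 and 329 FPKM for Pck1 in the other two mice. Replicate 1 of WT on chow was the lowest of its group for Igfbp1, Gdf15, Angptl4, Ahsg and Fetub and the highest for Fgf21, Igfbp2 and Enho. The 9 genes deviated there by 0.531 on average, against 0.160 over all tested genes. The deviation of Igfbp1 there was -1.57 on the log2 scale, and Pck1 and G6pc, at 771 and 146 FPKM, were also the lowest of the 3 mice. The 9 genes, most of which vary widely, deviated more than all tested genes in the other libraries too. The averages there ran from 0.200 against 0.158 (WT on MCD, replicate 1) to 0.401 against 0.181 (Pctp-/- on chow, replicate 1). That last liver was the lowest of its group for Fgf21, Gdf15, Angptl4, Angptl8, Igfbp2, Ahsg and Fetub. It was the highest for Igfbp1, at 326.2 FPKM, and its deviation over all tested genes, 0.181, was the largest of the 12 libraries. Why replicate 2 of Pctp-/- on MCD and replicate 1 of WT and of Pctp-/- on chow differed was not tested.

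**Figure D3:**
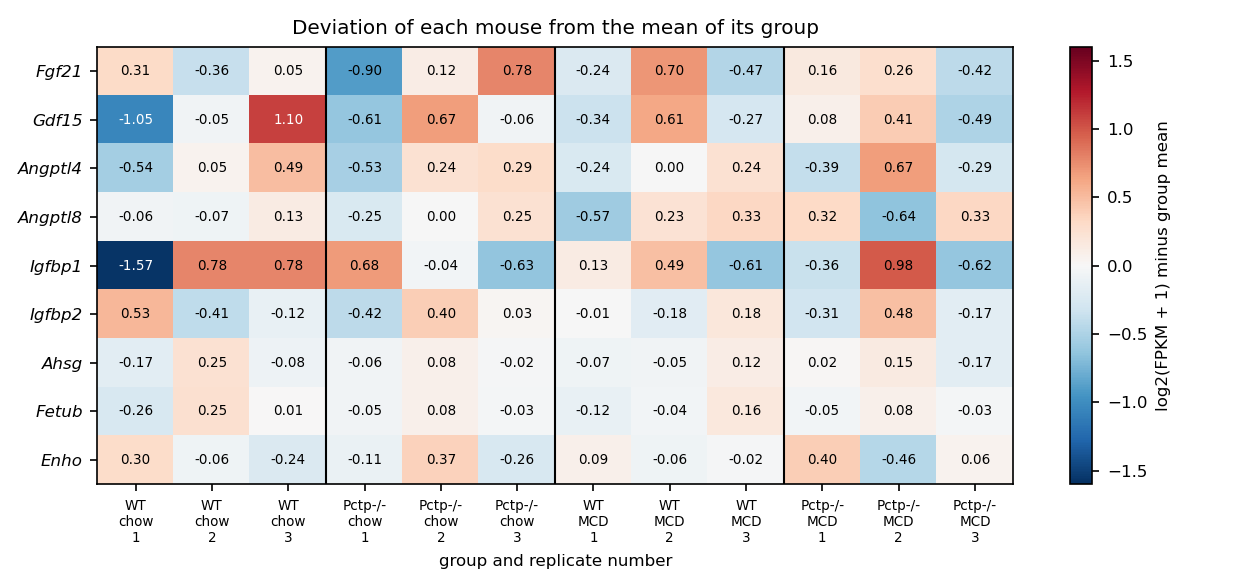
Deviation of each mouse from the mean of its group in log2(FPKM + 1), by gene (rows) and mouse (columns), with red above and blue below the mean. The column of replicate 2 of Pctp-/- on MCD is red for 7 genes and blue for Angptl8 and Enho, and the strongest single deviation is that of Igfbp1 in replicate 1 of WT on chow, at -1.57.

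Known regulators of these genes moved in both directions on MCD. Of 17 tested transcription factor genes, 4 were higher in WT (Ddit3, Atf4, Ppargc1a and Trp53) and 8 lower. In Pctp-/-, 5 were higher (Ddit3, Atf4, Ppargc1a, Nr1h4 and Nr3c1) and 6 lower, and under median-of-ratios scaling 3 were higher and 6 lower there. The shares called over all tested genes were 34.5% higher and 22.5% lower in WT, and 26% and 24.4% in Pctp-/-. Ddit3, the stress factor CHOP, rose by 2.05 in WT and 1.58 in Pctp-/- on the log2 scale, and Atf4 by 1.35 and 0.62. Srebf1, which drives lipogenic genes, fell by 2.10 and 2.04, and Mlxipl, the glucose-sensing factor ChREBP, fell by 1.16 in WT and changed by -0.49 in Pctp-/- (limma adjusted p = 0.237). No regulator was called between genotypes.

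ATF4 target genes, which respond to amino acid shortage and to endoplasmic reticulum stress, rose on MCD. Of 11 tested, 8 were higher and 0 lower in WT, where 34.5% of all tested genes were called higher. In Pctp-/- 6 were higher and 2 (Sesn2 and Slc3a2) lower, where 26% of all tested genes were called higher. The median log2 fold change was 2.12 in WT, against 0.11 over all tested genes, and 0.56 in Pctp-/-, against 0.04. Nupr1, a stress-induced nuclear protein, measured 0.120 to 0.237 FPKM in WT on chow and 29.5, 22.2 and 10.3 FPKM on MCD, and in Pctp-/- 6.47, 4.95 and 3.60 FPKM on MCD. Its log2 fold change was 4.11 in WT and 2.26 in Pctp-/-. Ddit4, an inhibitor of mTORC1, rose by 4.07 in WT and changed by 0.49 in Pctp-/- (limma adjusted p = 0.430).

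Between genotypes on MCD, 2 of 11 tested ATF4 targets were lower in Pctp-/-, where 0.818% of all tested genes were called in either direction. Nupr1 differed by -1.76 (limma adjusted p = 0.0188), and Slc3a2, the heavy chain of amino acid transporters, by -0.94 (limma adjusted p = 0.00760). Slc3a2 measured 40.2, 41.4 and 28.9 FPKM in WT and 20.6, 18.5 and 16.6 FPKM in Pctp-/- on MCD. For Slc3a2 and Nupr1 all 3 knockout livers were below all 3 WT livers, as for 21.1% of all tested genes on MCD. The median difference of the list was -0.80, against -0.09 over all tested genes. The diet comparison in WT and this one share the WT livers on MCD. No target was called for the difference of responses, where the smallest adjusted p was 0.0694 (limma), for Ddit4 and Slc3a2.

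PPARα targets, which serve fatty acid oxidation, were called in both directions on MCD. Of 14 tested, 6 were higher and 4 lower (Ehhadh, Acot1 and Fabp1 among them) in WT, and 7 were higher and 3 lower (Ehhadh and Acot1 among them) in Pctp-/-. Over all tested genes, 34.5% were called higher and 22.5% lower in WT, and 26% and 24.4% in Pctp-/-. Cyp4a14, a fatty acid hydroxylase whose reads may be shared with near copies, rose by 5.27 and 5.65, and Pdk4, which spares glucose by inhibiting pyruvate dehydrogenase, rose by 3.43 and 2.31. Acot1 fell by 2.90 and 3.05. No PPARα target was called between genotypes. Of 9 genes that respond to insulin or FOXO1, only Pdk4 was higher and 6 were lower in each genotype. Called lower were 22.5% of all tested genes in WT and 24.4% in Pctp-/-. G6pc fell by 2.90 in WT and 3.32 in Pctp-/-, and no gene of the list was called between genotypes.

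**Figure D4:**
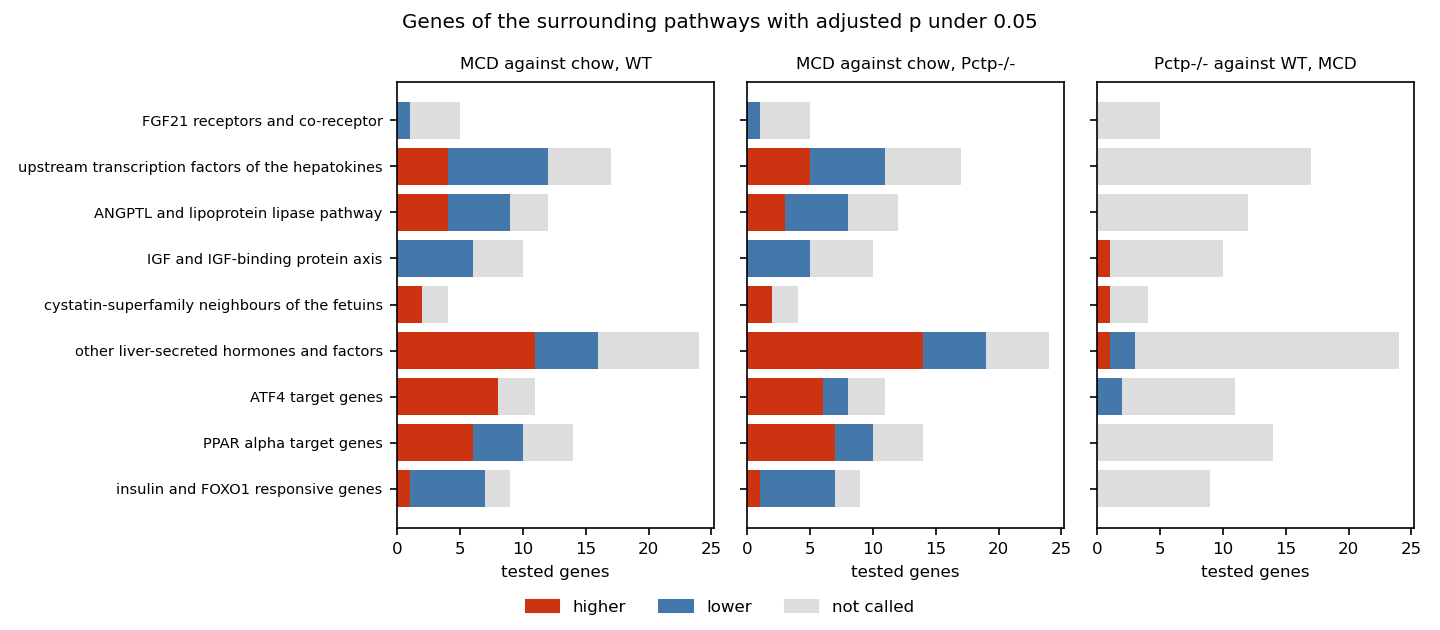
Number of tested genes of each pathway list that were higher, lower or not called (limma, adjusted p under 0.05) for the diet in each genotype and for Pctp-/- against WT on MCD. ATF4 targets are 8 higher and 0 lower in WT, and IGF axis genes 0 higher and 6 lower. Between genotypes on MCD at most 3 genes of any list were called, against 0.818% of all tested genes.

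Among 24 other genes for liver-secreted factors, 11 were higher on MCD in WT and 5 lower (Inhbc, Smoc1, Ambp, Serpinf1 and Fgf1), and 14 were higher and 5 lower (Inhbc, Tsku, Fst, Ambp and Serpinf1) in Pctp-/-. For all tested genes these shares were 34.5% higher and 22.5% lower in WT, and 26% and 24.4% in Pctp-/-. Lcn2, the iron-sequestering protein lipocalin 2, rose by 5.66 and 4.81, and Gpnmb, a glycoprotein of lipid-laden macrophages that is shed into plasma, by 4.67 and 5.45. Serpinf1, which encodes PEDF, fell by 1.40 and 1.58. Fgf1, a growth factor of the same family as Fgf21, fell by 1.02 in WT and changed by -0.16 in Pctp-/- (limma adjusted p = 0.377).

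Of these 24 genes, 3 were called between genotypes on MCD and 0 on chow, where 0.818% and 0.136% of all tested genes were called. Under quantile normalization Agt was called as well, higher in Pctp-/- on MCD (0.69, limma adjusted p = 0.0257). Tsku, which encodes the hepatokine tsukushi, measured 69.0, 34.5 and 27.0 FPKM in WT and 9.10, 11.2 and 6.35 FPKM in Pctp-/- livers on MCD, a log2 difference of -2.09 (limma adjusted p = 0.0113). Inhbe, the inhibin subunit that forms activin E, measured 80.1, 88.1 and 46.4 FPKM against 31.0, 34.2 and 32.7 FPKM, a difference of -1.06 (limma adjusted p = 0.0210). On chow Inhbe measured 28.0, 28.1 and 26.7 FPKM in WT and 15.3, 13.6 and 15.8 FPKM in Pctp-/-. This difference of -0.85 did not pass (limma adjusted p = 0.153) in a fit that pools the spread of all groups. The SD of Inhbe in WT and Pctp-/- was 0.80 and 1.17 FPKM on chow and 22.1 and 1.62 FPKM on MCD. Fgf1 was higher in Pctp-/- on MCD, at 13.6, 14.3 and 14.3 FPKM against 5.63, 8.48 and 9.82 FPKM, a difference of 0.77 (limma adjusted p = 0.0347) that was not called under median-of-ratios scaling. For Tsku and Inhbe the genotypes did not overlap on MCD, with Pctp-/- lower, as was seen for 21.1% of all tested genes.

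The genes with the pattern most like each hepatokine were found by the root-mean-square difference of log2(FPKM + 1) over the 12 libraries, after centring each gene on its mean. For Fgf21 they were Lcn2 (0.72), Ly6d (0.74) and Apoa4 (0.76), which rose on MCD by 5.66, 6.87 and 5.32 in WT. Angptl8 was nearest to A530020G20Rik (0.38), to Nrg4 (0.40), which encodes a secreted neuregulin, and to Hamp (0.41). Their log2 differences between genotypes on chow were -0.31, -0.74 and -0.49. The chow libraries were among the values by which these genes were chosen, so a shared direction there is no separate result. Igfbp1 was nearest to Trp53inp1 (0.61), Epha2 (0.73) and Depp1 (0.76), and Angptl4 to Ip6k2 (0.22) and Nfkbia (0.25). Nearest to Gdf15 were the genes Gm26664, Gm16061 and Gm15835, each at 0.41 or 0.42.

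The less variable genes had closer neighbours. Fetub lay 0.07 from Acsm1 and 0.10 from Vtn, which encodes the plasma protein vitronectin, and Rps16-ps2, a pseudogene whose reads may be shared with other copies, was also at 0.10. Ahsg lay 0.11 from Zfp62, Sarnp and Rpl3. Enho was nearest to Trim8 (0.16), Dohh (0.18) and Rela (0.19), and Igfbp2 to Hand2 (0.22), Tmem125 (0.24) and Jdp2 (0.24). All these distances come from the same 12 libraries, so mice that stood apart and the quality difference between diets are shared by both genes of a pair.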

How the data were processed

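Total RNA of whole liver was sequenced by Novogene, with 1 library per mouse. FPKM of each gene in each liver, per the labels on mm10, were deposited by the authors, as was a table of read totals in whole reads and quality measures as percentages. The aligner, the counting tool and the annotation were not given in the sources used here. The study used a Wald test on counts. Since FPKM are not counts, limma version 3.58.1 in R 4.3.3 was fitted here to log2(FPKM + 1) with 1 mean per group over all 12 libraries and a mean-variance trend, after a filter of mean FPKM at least 0.5, and was tested on simulated data. Genes with a two-sided Benjamini-Hochberg adjusted p under 0.05 over 12466 genes were called. Depth and spread limit the values of low genes. The p-values rest on a spread pooled over the 4 groups of 3 mice and moderated with that of genes of similar level. The SE of a gene is therefore the same for each diet or genotype comparison. Symbols came with 34490 of 35275 identifiers. The 9 genes and the lists were chosen with earlier results of these data known. Named in each list were genes called between genotypes and the 2 largest called rises and falls on MCD in WT. A few genes that this rule names are not reported here. Other list genes were chosen after their values were seen. Alternatives were the pseudocount, the filter, the scaling, the libraries in the fit, limma's options, a replicate block, a minimum fold change and leaving out each library.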

Additional observations from a re-analysis of the deposited data

How the results depend on the processing

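Of 936 values of the 45 fold changes under alternatives, 906 kept their direction and their side of the threshold. The 21 that changed sign belonged to 14 results that were not called, and each came from leaving out 1 library. These ranges were, for the difference of responses, -0.00943 to 0.20 for Ahsg, -0.38 to 0.0548 for Enho and -0.88 to 0.19 for Gdf15. For MCD in WT they were -0.39 to 0.12 for Angptl4 and -0.93 to 0.14 for Gdf15. For Pctp-/- against WT on chow they were -0.16 to 0.0453 for Ahsg, -0.23 to 0.10 for Enho, -0.20 to 0.0583 for Fetub, -0.0404 to 0.80 for Fgf21 and -0.74 to 0.33 for Gdf15. On MCD they were -0.0369 to 0.12 for Ahsg, -0.47 to 0.0551 for Angptl4, -0.43 to 0.18 for Angptl8 and -0.43 to 0.00445 for Enho. The cause was not tested.

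With an absolute log2 fold change of at least 1 required beside the adjusted p, 3 of 9 genes in place of 5 were called for MCD in Pctp-/- and 4 in place of 6 in WT. Igfbp1 on MCD in WT lost its call with no filter on low values (adjusted p = 0.0623, limma) and in the 3 fits without 1 library given above. With 1 library left out, the number of genes called was 5 to 6 for MCD in WT, 5 to 7 in Pctp-/- and 0 in the other comparisons.

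Same-numbered mice of different groups were different animals. In 8 of 18 such pairs the deviations had a correlation over 0.1 (range -0.0972 to 0.225). Whether mice of the same number had anything in common was not tested. With the replicate number as a block, 6 genes were called for MCD in WT, 6 in Pctp-/-, where Angptl4 was added at -0.63 (adjusted p = 0.0363, limma), and 0 in the other comparisons. Among the lists, the block added Slc3a2 (adjusted p = 0.0322, limma), Ddit4 (0.0497) and Kng2 (0.0483) to the difference of responses, where none had been called, Chac1 to the ATF4 targets lower in Pctp-/- on MCD (3 in place of 2), and Igf2r as a rise on MCD in WT (adjusted p = 0.0160) and in Pctp-/- (0.0449). Kng2 was added there under quantile normalization as well (0.0480). Quantile normalization or median-of-ratios scaling moved the median log2 fold change of all genes for MCD in WT from 0.11 to 0.01 and changed no call among the 9 genes.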
